A study of Sus scrofa domesticus with 36 samples.

Results

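Solute carriers are membrane proteins that move sugars, amino acids, ions, vitamins and lipids across the plasma membrane and the membranes of mitochondria, lysosomes, the endoplasmic reticulum and the Golgi, without using ATP directly. They are numbered by family, and most families share a kind of substrate. Skeletal muscle is known for transporters that serve contraction, such as those for creatine, lactate and mitochondrial ATP, while fat cells are known for insulin-driven glucose entry and for citrate export that feeds fatty acid synthesis. The genes described here are all rows whose Ensembl gene ID pairs with a pig symbol of SLC followed by a digit, leaving out SLC4A1, and they number 284 of 25322 genes in the table. They fall into 49 families and were sorted here by family number into 14 substrate groups. One member by this rule, SLC4A1AP, encodes a protein named for binding an anion exchanger and is not itself a transporter.

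RNA was sequenced from subcutaneous backfat (adipose) and from longissimus dorsi, a muscle along the spine (muscle), of the same 18 pigs of a commercial cross, Danbred 600 by Newsham NC32, which gave 36 libraries. That cross is the one in the growth protocol, while the samples' own breed labels give a different Newsham number for each sample, so they disagree. Adipose was taken between rib 8 and the last rib, and the tissues were harvested 3 weeks after weaning. Since the labels put the age at 16 to 17 days and name weaning as the stage, the age at sampling is not certain. The pigs were 9 slow growers (lowest 10 percent of 1054 pigs) and 9 from percentiles 60 to 70, but the labels used here do not say which pig is in which class, so growth was not compared. Both tissues are mixtures of cells, so more cells of a type and more RNA per cell cannot be told apart.

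Gene counts summed to between 2990471 and 5372941 per library in adipose and between 4716132 and 6216093 in muscle, so that 3 counts equal 0.558 to 1.003 CPM in adipose and 0.483 to 0.636 CPM in muscle before scaling, where CPM is a gene's count relative to the library's total. Levels below are CPM scaled with trimmed-mean factors of the counts, which averaged 1.62 in adipose and 0.626 in muscle. In scaled CPM, 3 counts are therefore worth less in adipose and more in muscle than before scaling. They are not divided by gene length, so levels of different genes are not compared. Of the fixed markers of muscle fibres, 5 of 6 had a row, all 5 were higher in muscle, and their summed level ran from 99.2 to 21232 CPM in adipose and from 61600 to 394790 CPM in muscle. Of the adipocyte markers, 3 of 7 had a row and all 3 were higher in adipose, with PLIN1, which coats lipid droplets in fat cells, between 288 and 699 CPM in adipose and between 1.44 and 29.6 CPM in muscle. Pigs are named by their sample titles. The adipose libraries of Sample_731, Sample_391, Sample_911 and Sample_176 held the most ACTA1, the skeletal muscle actin (3433 to 17526 CPM, against 2448 CPM or less in the others), and results were also computed without these 4 pigs.

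Most solute carrier genes that could be tested differed between the tissues, on both sides. Of the 284 members, 151 passed the filter on low counts. Of these, 87 (57.6%) were higher in adipose, beside 46.7% of the 12542 genes tested, and 52 (34.4%) were higher in muscle, beside 39.2% of all genes tested, at an adjusted p under 0.05. The remaining 12 did not pass. Adjusted p values for the tissue difference are from edgeR's quasi-likelihood test with Benjamini-Hochberg adjustment over all genes tested. They ran from 1.04e-27 (SLC25A12) to 0.0390 (SLC2A8) among the members that passed. The median log2 difference, adipose minus muscle, was 0.55 over the members and 0.14 over all genes tested. The difference was 2-fold or more for 68.3% of the members that passed, 60 of the 87 in adipose and 35 of the 52 in muscle. Among all genes that passed, it was 2-fold or more for 3424 of 5853 in adipose and 2620 of 4919 in muscle. Every adipose library lay above every muscle library for 50 members (33.1%), beside 14.8% of all genes, and every muscle library lay above every adipose library for 26 members (17.2%), beside 17.6% of all genes. A gene can pass the filter through 1 tissue alone, and 26 of the 151 members did not reach 1 CPM in at least 15 libraries of both tissues (17 were higher in adipose and 9 in muscle). These shares therefore describe the members that passed and not the whole set.

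How the members divided depended on scaling. Under library totals alone, the median of all genes moved to 1.50 and that of the members to 1.91, 116 members were higher in adipose and 29 in muscle, and the adipose share of the members' calls was 80.0%, against 62.6% with trimmed-mean factors. Over all genes tested, that share was 54.3% with trimmed-mean factors and 87.0% under library totals alone. The members' share was thus above that of all genes with the factors and below it under library totals alone. Under that scaling 17 members changed from a muscle to an adipose call and 6 more lost their muscle call. Without Sample_731, Sample_391, Sample_176 and Sample_911, 87 members were higher in adipose and 49 in muscle.

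**Figure D1:**
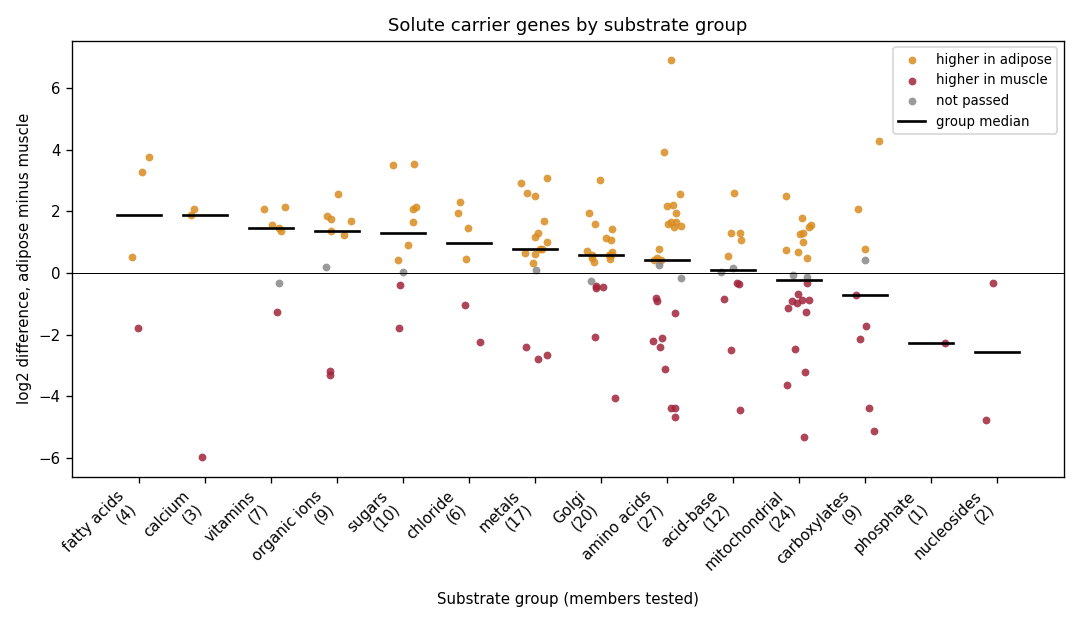
Log2 difference, adipose minus muscle, of the 151 tested solute carrier genes (points) in 14 substrate groups, with the group medians as bars, coloured by the edgeR call at an adjusted p under 0.05. Most groups hold genes on both sides of 0, from SLC36A2 at 6.90 to SLC8A3 at -5.97.

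Of 27 families with at least 2 members that passed, 18 held members on both sides. On the adipose side alone were 8, and 1, the nucleoside family SLC29, was on the muscle side alone. Calls on both sides were common among all genes tested too (46.7% in adipose and 39.2% in muscle). How often other genes in groups of these sizes hold both sides was not tested. Where a gene's lowest, median and highest values are given below, its tissues did not overlap unless an overlap is named. The largest group by genes tested, the amino acid carriers, is described first, followed by those of mitochondria, fuels, ions and metals, and the compartments of the cell.

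Amino acid carriers were split, with 15 of 27 tested genes favouring adipose, 10 favouring muscle and 2 without a call (19 and 7 under library totals alone). Because groups follow family numbers, the 27 include genes with other substrates, such as the creatine transporter SLC6A8 and the serotonin transporter SLC6A4. The muscle side held some carriers of glutamine and other neutral amino acids, and the adipose side held others. SLC38A3, a sodium-coupled glutamine transporter, had a lowest, median and highest level of 0.494, 1.51 and 7.63 CPM in adipose and of 27.999, 44.5 and 66.9 CPM in muscle, a log2 difference of -4.68 (SE 0.225). SLC38A4, a related neutral amino acid transporter, was at 0.589, 2.16 and 24.8 CPM in adipose and at 33.4, 68.9 and 135 CPM in muscle (-4.37, SE 0.342). The highest adipose value of SLC38A4 came from Sample_731, the highest in ACTA1 as well, and the difference was -5.01 without that pig and -5.33 without the 4 pigs named above. SLC38A2, the adaptive member of the same family, differed less, with 4.42, 8.75 and 13.5 CPM in adipose and 13.9, 21.6 and 38.1 CPM in muscle (-1.30, SE 0.124; 0.08 under library totals alone). In all 3 genes the tissues did not overlap.

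Exchangers built from a heavy and a light subunit had subunits on both sides. SLC3A2, the heavy subunit shared by several exchangers, was at 31.1, 43.1 and 66.6 CPM in adipose and at 112, 210 and 296 CPM in muscle (log2 difference -2.10, SE 0.121). Its light subunit SLC7A8, which carries large neutral amino acids, was at 1.59, 3.46 and 10.3 CPM in adipose and at 26.8, 62.2 and 192 CPM in muscle (-4.40, SE 0.290). The light subunit SLC7A7, which exchanges cationic for neutral amino acids and was named after its values were seen, differed by -0.80 (SE 0.0706) but by 0.57 under library totals alone. The light subunit SLC7A10, which carries small neutral amino acids and is described as a surface protein of white fat cells, went the other way, with 7.44, 15.8 and 26.5 CPM in adipose and 1.92, 4.92 and 12.4 CPM in muscle (1.59, SE 0.166), and its tissues overlapped. SLC7A2, a transporter of arginine and lysine that needs no heavy subunit, was at 1.36, 3.10 and 7.19 CPM in adipose and at 14.96, 32.6 and 46.1 CPM in muscle (-3.10, SE 0.177). SLC3A1, the heavy subunit of the kidney's cystine exchanger, was not tested because of low counts, but its values of 0 to 0.587 CPM in adipose and 1.49 to 15.7 CPM in muscle did not overlap.

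Levels of a heavy subunit and its partners, and of lactate carriers and their chaperones, were compared over the pigs within each tissue. The 14 pairs listed were taken in each tissue, and 8 tests had both genes at 1 CPM in at least 15 libraries. These were SLC3A2 with SLC7A7, SLC7A8 and SLC7A10 in each tissue, and SLC16A3 and SLC16A7 with the chaperone EMB in adipose alone. By two-sided permutation with Benjamini-Hochberg adjustment over the 8 tests, 0 passed, while 1 pair had an unadjusted p under 0.05. That pair was SLC3A2 and SLC7A8 in adipose, with a Spearman rho of 0.480 (permutation p = 0.0440; adjusted p = 0.352) and a Pearson r of 0.567 (permutation p = 0.0135; adjusted p = 0.108), or 0.378 without the 2 libraries farthest from the median of SLC3A2. In muscle the same pair had a rho of -0.03 (permutation p = 0.915; adjusted p = 0.915) and an r of -0.07 (permutation p = 0.784; adjusted p = 0.784).

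SLC6A8, the creatine transporter, was at 20.7, 34.7 and 63.9 CPM in adipose and at 102, 200.4 and 311 CPM in muscle, a log2 difference of -2.41 (SE 0.157), with no overlap. CKMT2, the muscle's mitochondrial creatine kinase, differed by -6.28 (SE 0.437).

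On the adipose side, SLC1A5, which exchanges glutamine and other neutral amino acids, was at 150.1, 180 and 282 CPM in adipose and at 19.2, 30.9 and 57.9 CPM in muscle (log2 difference 2.57, SE 0.115). SLC38A10 was at 96.8, 139.6 and 207 CPM in adipose and at 34.5, 45.0 and 61.1 CPM in muscle (1.66, SE 0.0911). Neither gene overlapped between the tissues. Of 8 tested genes of the SLC38 family, 5 were higher in adipose, SLC38A10 among them. The 3 higher in muscle were SLC38A2, SLC38A3 and SLC38A4. SLC6A4, the serotonin transporter, was at 7.37, 18.2 and 41.0 CPM in adipose and at 0.247, 1.11 and 3.98 CPM in muscle (3.94, SE 0.237).

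SLC36A2 is a proton-coupled carrier of small amino acids that is used in mice as a surface marker of brown and beige fat cells. Among the tested members it had the farthest difference on the adipose side. It was at 0.972, 4.43 and 20.0 CPM in adipose, while its highest muscle library held 0.324 CPM and the median muscle library 0. Its deposited counts summed to 891 in adipose and 5.5 in muscle, a ratio of 72.0 after scaling (95% exact binomial interval 30.2 to 180, counting error only). The fitted log2 difference was 6.90 (SE 0.628) by edgeR but 4.85 by limma voom. Within adipose it ranged widely, with the 4 highest libraries, of Sample_889, Sample_991, Sample_242 and Sample_391, at 12.8 CPM or more. Not tested were SLC6A6, the taurine transporter, at up to 3.21 CPM in adipose and 1.15 CPM in muscle, and SLC7A11, the cystine transporter, at up to 1.03 CPM in adipose and 0.683 CPM in muscle.

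**Figure D2:**
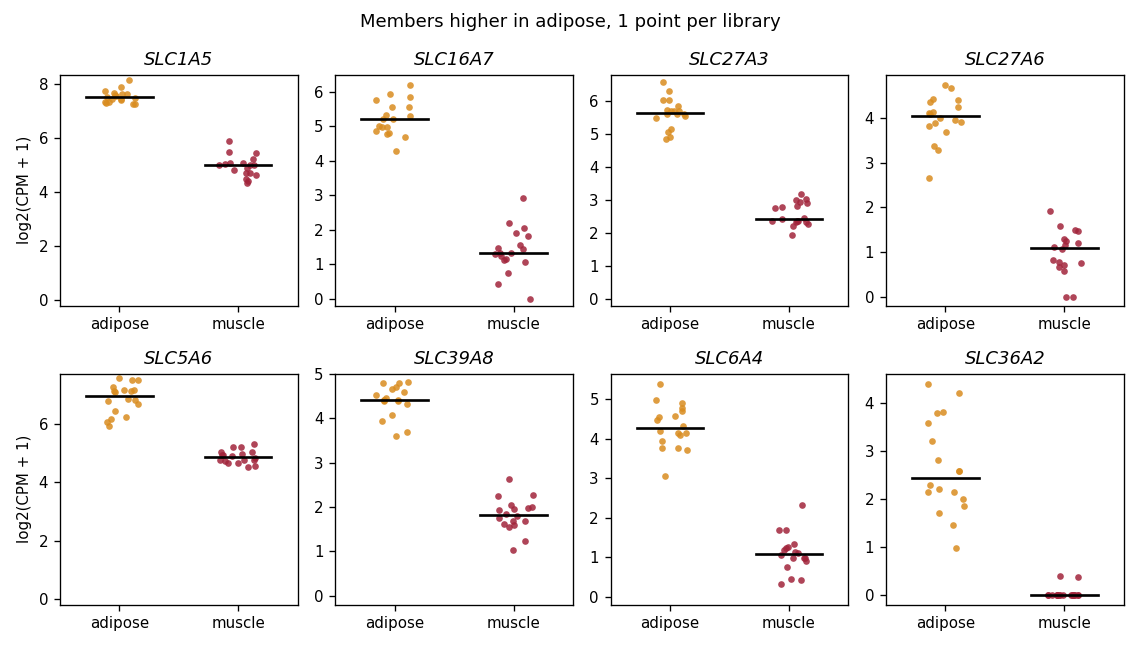
Level in log2(CPM + 1) of 8 members higher in adipose, with 1 point for each of 18 libraries per tissue and the median as a bar. The 2 tissues do not overlap in any of these 8 genes, and SLC36A2 is at 0 in most muscle libraries.

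Mitochondrial carriers of the SLC25 family were higher in adipose in 10 of 24 tested genes and higher in muscle in 12, with 2 not passing, and close relatives lay on opposite sides. When scaled by library totals, 18 were higher in adipose and 4 in muscle. SLC25A4, the ADP/ATP carrier of muscle and heart, was at 18.7, 45.1 and 283 CPM in adipose and at 2022, 2518 and 4334 CPM in muscle (log2 difference -5.32, SE 0.277). SLC25A5, the carrier of the same substrates in many other tissues, was at 37.4, 57.0 and 88.1 CPM in adipose and at 13.7, 18.5 and 30.8 CPM in muscle (1.50, SE 0.113). The tissues did not overlap for either gene, in opposite directions. These genes are similar in sequence, and reads that fit several of them may have been lost or split in the counting.

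SLC25A12, an exchanger of aspartate and glutamate that passes cytosolic reducing power to mitochondria, was at 11.9, 14.7 and 23.1 CPM in adipose and at 118, 190.1 and 281 CPM in muscle (log2 difference -3.63, SE 0.104). Its relative SLC25A13, which has the same function in liver and was named after its values were seen, was at 4.89, 7.11 and 12.8 CPM in adipose and at 2.73, 5.42 and 9.498 CPM in muscle (0.47, SE 0.119), with overlap. SLC25A3, which imports phosphate for ATP synthesis, was at 161, 197 and 307 CPM in adipose and at 967, 1157 and 1678 CPM in muscle (-2.48, SE 0.0941). SLC25A25, a calcium-regulated carrier of ATP-magnesium and phosphate, was at 10.8, 19.6 and 31.8 CPM in adipose and at 43.6, 150.0 and 499 CPM in muscle (-3.21, SE 0.248). The muscle values of SLC25A25 were spread more than 10-fold, from Sample_572 to Sample_77, and still all lay above the adipose values.

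Carriers tied to fatty acid use also differed. SLC25A20, which brings acylcarnitines into mitochondria for oxidation, was at 21.6, 36.3 and 48.3 CPM in adipose and at 44.7, 63.6 and 109 CPM in muscle (log2 difference -0.91, SE 0.113; 0.47 under library totals alone). CPT1B and CPT2, the muscle carnitine palmitoyltransferase and its inner membrane partner, differed by -4.19 (SE 0.206) and -0.94 (SE 0.127). SLC25A1, the citrate exporter that supplies carbon for fatty acid synthesis, was at 27.6, 36.05 and 76.3 CPM in adipose and at 11.5, 14.9 and 26.5 CPM in muscle (1.31, SE 0.128). The tissues overlapped for SLC25A20 and not for SLC25A1.

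**Figure D3:**
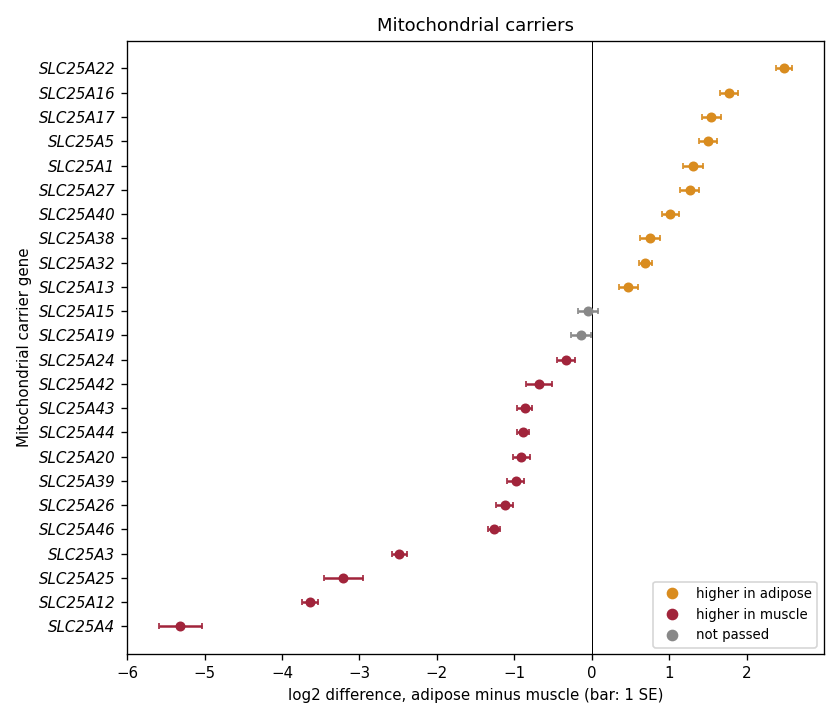
Log2 difference, adipose minus muscle, of the 24 tested mitochondrial carriers with 1 SE as bars, coloured by the edgeR call. SLC25A4 (-5.32) and SLC25A12 (-3.63) are the farthest on the muscle side, and SLC25A22, a glutamate carrier, at 2.49 is the farthest on the adipose side.

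Carriers of lactate and other carboxylates were higher in adipose in 3 of 9 tested genes and higher in muscle in 5, with 1 not passing (5 and 3 under library totals alone, and 5 in adipose without Sample_391). SLC16A3, the lactate exporter of glycolytic cells, was at 1.70, 6.81 and 11.9 CPM in adipose and at 71.6, 212 and 477 CPM in muscle (log2 difference -5.13, SE 0.244). SLC16A7, a relative with high affinity for pyruvate and lactate, was at 18.6, 35.9 and 71.7 CPM in adipose and at 0, 1.51 and 6.62 CPM in muscle (4.29, SE 0.236). These genes thus lay on opposite sides without overlap. SLC16A10, which carries aromatic amino acids, was at 1.36, 2.79 and 9.10 CPM in adipose and at 21.98, 55.0 and 154 CPM in muscle (-4.40, SE 0.256). SLC16A5 was at 15.3, 20.5 and 30.9 CPM in adipose and at 28.5, 77.6 and 280.1 CPM in muscle (-2.15, SE 0.211), and its tissues overlapped slightly. SLC16A12, which did not pass (0.41, SE 0.253, adjusted p = 0.128 by edgeR), passed with the pig as a replicate block (edgeR adjusted p = 0.0342) and without Sample_391 (edgeR adjusted p = 0.0430). EMB, a chaperone of lactate transporters, differed by 2.48 (SE 0.352), and MPC2, a subunit of the mitochondrial pyruvate carrier, by -1.53 (SE 0.110).

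Sugar carriers were higher in adipose in 7 of 10 tested genes and higher in muscle in 2, with 1 not passing (9 and 1 under library totals alone). SLC2A4, the insulin-responsive glucose transporter of muscle and fat, was not tested, because 12 counts over all adipose libraries and 37.5 counts over all muscle libraries were assigned to it. It stood at 0 to 0.262 CPM in adipose and at 0 to 1.49 CPM in muscle, close to what 3 counts are worth. Which exons were counted for it is not known here, so this level cannot be read as that of the whole gene. Among genes of its traffic, TBC1D4, a regulator of its release to the cell surface, differed by -2.40 (SE 0.163), LNPEP, which shares its vesicles, by -0.57 (SE 0.132), TBC1D1 by 0.49 (SE 0.134), and the membrane fusion gene STX4 had -0.09 (SE 0.0697, edgeR adjusted p = 0.246).

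SLC2A12, another glucose transporter of insulin-sensitive tissues, was at 1.18, 3.44 and 6.37 CPM in adipose and at 6.05, 10.9 and 20.6 CPM in muscle (log2 difference -1.79, SE 0.176), with a slight overlap although muscle was higher in 18 of 18 pigs. SLC5A6, which takes up biotin and pantothenate although its family is named for sugars, was at 60.9, 126 and 192 CPM in adipose and at 22.2, 28.3 and 38.7 CPM in muscle (2.09, SE 0.133), without overlap. SLC50A1, a sugar carrier of the Golgi, was at 13.8, 17.6 and 22.8 CPM in adipose and at 3.01, 5.69 and 7.50 CPM in muscle (1.66, SE 0.0932). SLC2A6, a lysosomal relative, ranged from 1.20 to 19.9 CPM in adipose and from 0 to 6.33 CPM in muscle (2.13, SE 0.342), with overlap. The farthest sugar carriers on the adipose side, named after their values were seen, were SLC2A10, a glucose transporter of inner membranes, and SLC45A3, both low in muscle. SLC2A10 was at 1.70, 3.19 and 11.3 CPM in adipose and at 0, 0.310 and 0.648 CPM in muscle (3.52, SE 0.3245). SLC45A3 differed by 3.53 (SE 0.318), and its summed counts, 369 in adipose and 15 in muscle, gave a ratio of 10.9 after scaling (95% exact binomial interval 6.54 to 19.7). SLC2A11 did not pass (0.03, SE 0.112, edgeR adjusted p = 0.785). The call of SLC2A8 (0.43, SE 0.193, edgeR adjusted p = 0.0390) was lost when Sample_77, Sample_176, Sample_231, Sample_242, Sample_656, Sample_731, Sample_835, Sample_889 or Sample_998 was left out, with edgeR adjusted p of 0.0509 to 0.113, and that of SLC5A4 on the muscle side (-0.39, SE 0.158, edgeR adjusted p = 0.0226; 0.99 under library totals alone) was lost without Sample_835 (edgeR adjusted p = 0.0531), which left 1 sugar carrier on the muscle side.

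Genes of fatty acid uptake and activation were higher in adipose in 3 of 4 cases, with SLC27A1 as the exception, and this split held under library totals alone. SLC27A1, the family's insulin-responsive member, was at 5.10, 7.30 and 9.18 CPM in adipose and at 15.4, 23.5 and 48.2 CPM in muscle (log2 difference -1.79, SE 0.130). SLC27A3 was at 27.5, 48.7 and 92.6 CPM in adipose and at 2.84, 4.40 and 8.07 CPM in muscle (3.28, SE 0.152). SLC27A6, known as the heart's member, was at 5.30, 15.6 and 25.5 CPM in adipose and at 0, 1.13 and 2.78 CPM in muscle (3.77, SE 0.230). SLC27A4 differed least, with 7.41, 9.48 and 11.9 CPM in adipose and 5.43, 6.74 and 8.20 CPM in muscle (0.51, SE 0.0723), and was the only one of the 4 with overlap. ACSL1, another enzyme that activates fatty acids, did not pass (-0.07, SE 0.135, edgeR adjusted p = 0.632).

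SLC37A4, which moves glucose 6-phosphate into the endoplasmic reticulum, was at 6.59, 11.7 and 21.7 CPM in adipose and at 51.6, 189 and 476 CPM in muscle (log2 difference -4.05, SE 0.226), with no overlap. Its relatives SLC37A1 and SLC37A2, named after their values were seen, were higher in adipose (0.60, SE 0.0970 and 1.59, SE 0.104).

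**Figure D4:**
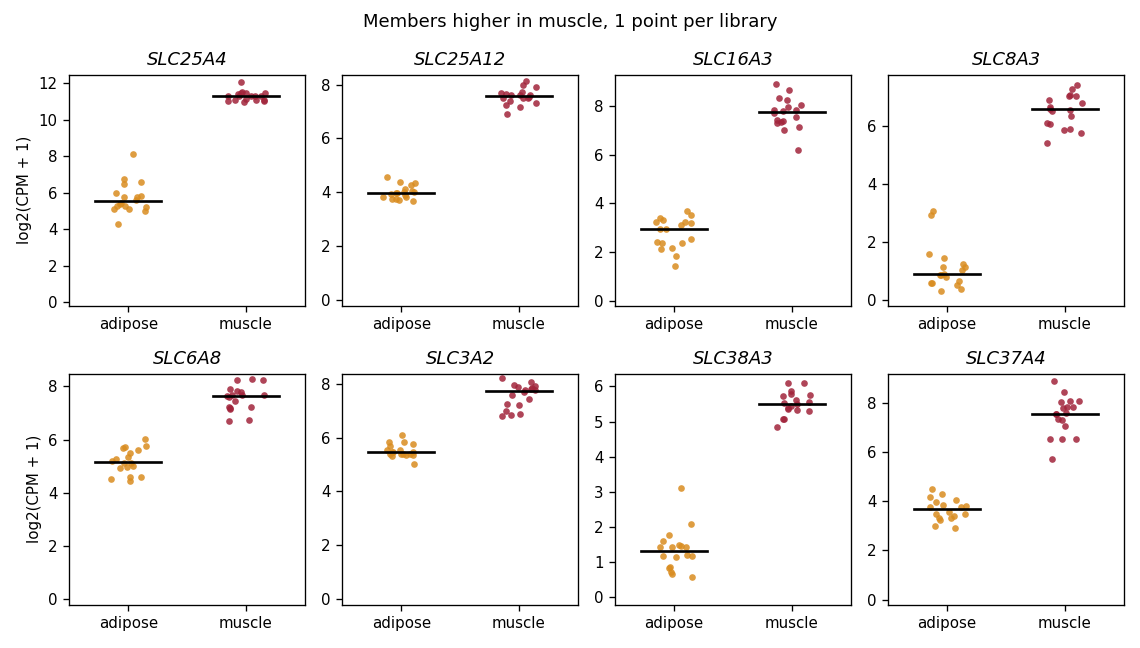
Level in log2(CPM + 1) of 8 members higher in muscle, with 1 point for each of 18 libraries per tissue and the median as a bar. No adipose library reaches the lowest muscle library in any of these 8 genes, and the adipose values of SLC25A4 and SLC8A3 trail upward.

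Calcium exchangers had 3 tested genes, 2 favouring adipose and 1 favouring muscle, also under library totals alone. SLC8A3, a sodium-calcium exchanger of the plasma membrane in muscle and brain, was at 0.230, 0.841 and 7.34 CPM in adipose and at 41.3, 93.8 and 168 CPM in muscle (log2 difference -5.97, SE 0.329), and -6.78 without the 4 pigs named above. This was the farthest difference of all tested members on the muscle side. SLC8B1, the sodium-calcium exchanger of mitochondria, was at 15.3, 26.3 and 35.0 CPM in adipose and at 2.05, 6.79 and 13.8 CPM in muscle (1.87, SE 0.145), while MCU, the mitochondrial calcium uniporter, differed by -2.64 (SE 0.147). SLC24A5, a potassium-dependent exchanger of pigment cells, stayed at or below 3.52 CPM in adipose and 1.44 CPM in muscle (2.06, SE 0.229), with overlap.

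Carriers of protons and bicarbonate were evenly split, with 5 of 12 tested genes favouring adipose, 5 favouring muscle and 2 without a call (10 and 2 under library totals alone). SLC9A2, a sodium-proton exchanger best known from gut and kidney, was at 0, 0.683 and 2.06 CPM in adipose and at 9.51, 16.5 and 34.8 CPM in muscle (log2 difference -4.43, SE 0.247). Its relative SLC9A5 was at 7.66, 13.5 and 24.9 CPM in adipose and at 0.863, 2.18 and 3.45 CPM in muscle (2.59, SE 0.161). SLC4A2, a chloride-bicarbonate exchanger, was at 44.0, 52.5 and 71.3 CPM in adipose and at 12.3, 20.5 and 38.1 CPM in muscle (1.31, SE 0.104). The bicarbonate importer SLC4A7 (-0.83, SE 0.0974) and SLC4A1AP (-0.37, SE 0.0652) were higher in muscle but turned to 0.54 and 0.99 under library totals alone. SLC4A4, a bicarbonate cotransporter named after its values were seen, did not pass (0.17, SE 0.124, edgeR adjusted p = 0.201) but passed without Sample_835 (edgeR adjusted p = 0.0445).

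SLC9A4, another exchanger of this family, was not tested because too few libraries reached the level asked by the filter on low counts. It was at 0 in all 18 muscle libraries, and its lowest, median and highest values in adipose were 0, 1.28 and 13.1 CPM. With 382 counts in adipose and 0 in muscle, the ratio after scaling was 56.6, taking 3 counts over the muscle group as the floor. The 95% exact binomial interval, for counting error only, began at 45.8 and had no upper end. SLC9A4 was chosen after its values were seen. The 5 fixed markers of gland epithelium summed to 31.6 to 213 CPM in adipose and to 3.67 to 17.2 CPM in muscle, and their part in the SLC9A4 level was not tested.

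Chloride carriers were higher in adipose in 4 of 6 tested genes and higher in muscle in 2 (4 and 1 under library totals alone). SLC12A2, which brings sodium, potassium and chloride into cells, was at 11.98, 19.8 and 49.1 CPM in adipose and at 39.9, 99.3 and 224 CPM in muscle (log2 difference -2.25, SE 0.202), and was higher in muscle in 17 of 18 pigs, with overlap. SLC12A4, which lets potassium and chloride out, was at 42.5, 51.6 and 67.3 CPM in adipose and at 12.1, 20.7 and 25.9 CPM in muscle (1.47, SE 0.0871). SLC12A9 also lay on the adipose side (2.31, SE 0.102), and the anion exchanger SLC26A6 on the muscle side (-1.05, SE 0.142; 0.32 under library totals alone). ATP1B1, a subunit of the sodium pump that supplies the gradient for many of these carriers, differed by -2.91 (SE 0.136).

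Metal carriers were mostly on the adipose side, with 13 of 17 tested genes on that side, 3 favouring muscle and 1 without a call (14 and 3 under library totals alone). The muscle side held both magnesium genes SLC41A1 and SLC41A3 and the copper gene SLC31A2. SLC41A1, a magnesium transporter of the plasma membrane, was at 16.5, 19.0 and 27.2 CPM in adipose and at 69.8, 139 and 212 CPM in muscle (log2 difference -2.80, SE 0.109). SLC41A3, its mitochondrial relative, was at 2.20, 4.62 and 7.37 CPM in adipose and at 17.6, 28.8 and 50.8 CPM in muscle (-2.67, SE 0.141). The third member, SLC41A2, was at 6.63, 11.4 and 24.5 CPM in adipose and at 0.342, 1.43 and 3.45 CPM in muscle (3.09, SE 0.209), so that the family was divided without overlap.

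Zinc carriers made up most of the adipose side. SLC39A8, which takes up zinc and manganese, was at 11.1, 20.4 and 27.2 CPM in adipose and at 1.04, 2.54 and 5.18 CPM in muscle (log2 difference 2.93, SE 0.143). SLC39A1, a zinc importer of the plasma membrane, was at 64.5, 84.0 and 109 CPM in adipose and at 28.6, 37.4 and 52.9 CPM in muscle (1.16, SE 0.0693). SLC30A2, a zinc exporter known from secretory glands, varied in adipose between 0.430 CPM in Sample_656 and 20.0 CPM in Sample_391, with a median of 5.74, and stayed between 0 and 2.24 CPM in muscle (2.52, SE 0.332). The tissues overlapped for SLC30A2 alone among these 3 genes. Its adipose level had a Spearman rho of -0.07 (permutation p = 0.786; adjusted p = 0.928) and a Pearson r of -0.14 (permutation p = 0.576; adjusted p = 0.811; -0.22 without 2 libraries) with KRT8, a gland epithelium marker. SLC49A3 was at 42.3, 63.3 and 89.4 CPM in adipose and at 3.19, 10.5 and 17.4 CPM in muscle (2.58, SE 0.140). SLC40A1, the iron exporter, was not tested, at up to 1.37 CPM in adipose and 0.740 CPM in muscle.

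Nucleoside carriers had 2 tested genes, both higher in muscle. SLC29A2 was at 0.115, 0.472 and 1.76 CPM in adipose and at 3.07, 15.1 and 29.4 CPM in muscle (log2 difference -4.79, SE 0.262). SLC29A1, the main equilibrative nucleoside transporter of many cells, was at 51.9, 76.9 and 106 CPM in adipose and at 70.6, 97.7 and 112 CPM in muscle (-0.32, SE 0.0845; 1.05 under library totals alone), and its tissues overlapped. The only phosphate importer tested, SLC20A2, was at 2.04, 3.15 and 5.87 CPM in adipose and at 5.31, 14.6 and 32.6 CPM in muscle (-2.28, SE 0.161), with overlap, while XPR1, a phosphate exporter, differed by 1.33 (SE 0.124).

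Carriers of organic ions were higher in adipose in 6 of 9 tested genes and higher in muscle in 2, with 1 not passing (7 and 2 under library totals alone). SLC22A3, a transporter of monoamines and other organic cations, was at 17.2, 29.7 and 43.0 CPM in adipose and at 3.61, 6.58 and 21.4 CPM in muscle (log2 difference 1.86, SE 0.168), with overlap. SLC22A17 (1.74, SE 0.124) and SLC22A15 (2.57, SE 0.143) also lay on the adipose side. SLC22A16, a carnitine transporter first known from testis, was at 0.243, 1.27 and 2.64 CPM in adipose and at 5.48, 12.5 and 19.6 CPM in muscle (-3.30, SE 0.232), and SLC22A23 differed by -3.17 (SE 0.251). SLC10A3 did not pass (0.20, SE 0.101, edgeR adjusted p = 0.0655), but passed with the pig as a replicate block (edgeR adjusted p = 0.0198) and without Sample_572, Sample_735 or Sample_991 (edgeR adjusted p of 0.0188 to 0.0396). SLC22A4, a carrier of ergothioneine, was not tested, at up to 1.33 CPM in adipose and 0.696 CPM in muscle.

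Carriers of vitamins and choline were higher in adipose in 5 of 7 tested genes and higher in muscle in 1, with 1 not passing (6 and 0 under library totals alone). SLC23A2, the vitamin C transporter of most tissues, was at 34.1, 42.6 and 52.7 CPM in adipose and at 11.8, 14.3 and 18.5 CPM in muscle (log2 difference 1.55, SE 0.0661). The choline transporters were divided, with SLC44A1 at 51.7, 88.1 and 128 CPM in adipose and 22.5, 33.5 and 43.7 CPM in muscle (1.36, SE 0.0995). SLC44A2 was at 93.8, 121 and 157 CPM in adipose and at 130.0, 287 and 434 CPM in muscle (-1.26, SE 0.103; 0.09 under library totals alone), with overlap. The thiamine transporter SLC19A2 did not pass (-0.33, SE 0.191, edgeR adjusted p = 0.109; 1.05 under library totals alone, where it passed).

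Carriers of the Golgi and endoplasmic reticulum were higher in adipose in 14 of 20 tested genes and higher in muscle in 5, with 1 not passing (18 and 2 under library totals alone). Of these, 6 in adipose and 2 in muscle differed by 2-fold or more. SLC35A1, which brings sialic acid donors into the Golgi, was at 30.4, 36.7 and 47.7 CPM in adipose and at 19.5, 25.3 and 39.1 CPM in muscle (log2 difference 0.58, SE 0.0699), with overlap. SLC35F5 (0.37, SE 0.0966) and SLC35F6 (0.72, SE 0.0908) lay on the same side. SLC35F2 was the farthest, with 3.41, 6.90 and 9.52 CPM in adipose and 0, 0.711 and 1.49 CPM in muscle (3.02, SE 0.183). SLC35A4, apart from SLC37A4 the farthest on the muscle side, was at 12.8, 15.6 and 23.8 CPM in adipose and at 44.4, 67.0 and 98.6 CPM in muscle (-2.08, SE 0.0973).

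Of the 133 members not tested, 10 had no count in any library, 110 had counts in both tissues, 11 in adipose libraries only and 2 in muscle libraries only. The largest number of untested members was among the amino acid carriers (28) and the carriers of organic ions (27). No untested member had a mean above 5.14 CPM in either tissue, the value of SLC3A1 in muscle.

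The spread between pigs was compared next. Over the 151 tested members the median SD of log2 CPM was 0.339 in adipose and 0.409 in muscle, beside 0.317 in adipose and 0.370 in muscle over all genes tested. The adipose SD was the larger for 32.5% of the members and for 32.8% of all genes. Among tested members with a mean of at least 5 CPM in the tissue concerned, the widest in adipose were SLC30A2 (SD 1.11), SLC36A2 (1.10) and SLC2A6 (1.01). SLC9A7, a sodium-proton exchanger of the Golgi, was the widest of them in muscle (1.11), with 0.652, 1.94 and 4.86 CPM in adipose and 3.07, 6.66 and 40.9 CPM in muscle, where the highest was Sample_735, and with overlap between the tissues. It was followed in muscle by SLC25A25 (0.920), SLC7A8 (0.849), SLC16A5 (0.833) and SLC37A4 (0.783).

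**Figure D5:**
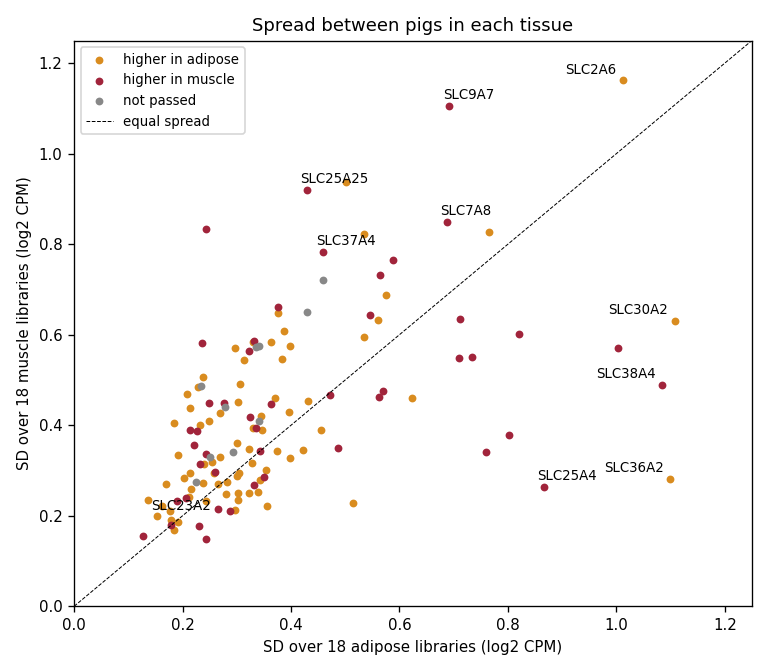
SD of log2 CPM over 18 libraries in adipose (horizontal) and in muscle (vertical) for the 131 tested members with a mean of at least 5 CPM in 1 tissue, coloured by the edgeR call, with a dashed line of equal spread. SLC30A2 and SLC36A2 lie far to the right (adipose SD of 1.11 and 1.10), SLC9A7 and SLC25A25 lie toward the top (muscle SD of 1.11 and 0.920), and SLC2A6, wide in both tissues, lies at the top right.

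Some members varied in adipose with markers of other cells, but about as often as genes in general or less often. Correlations with marker genes over the 18 adipose libraries were tested by two-sided permutation with Benjamini-Hochberg adjustment over all genes, a test added after the data were seen. With ACTA1, 2 of 151 members passed by Spearman's rho (1.32%), beside 2.03% of all genes. By Pearson's r, beside 356 of 12541 genes, 4 members passed. Those that passed by both were SLC25A4, with a Spearman rho of 0.930 (permutation p = 1e-05, as low as 100000 permutations allow; adjusted p = 0.000972) and a Pearson r of 0.887 (permutation p = 1e-05; adjusted p = 0.000729; 0.855 without 2 libraries), and SLC38A4, with a rho of 0.759 (permutation p = 0.00043; adjusted p = 0.0248) and an r of 0.779 (permutation p = 6e-05; adjusted p = 0.00362; 0.715 without 2 libraries). SLC8A3, with an r of 0.737 (permutation p = 0.00026; adjusted p = 0.0129; 0.481 without 2 libraries) and a rho of 0.610 (permutation p = 0.00813; adjusted p = 0.184), passed by r alone. So did SLC38A3, with an r of 0.706 (permutation p = 0.00082; adjusted p = 0.0333; 0.515 without 2 libraries) and a rho of 0.705 (permutation p = 0.00167; adjusted p = 0.0715). All 4 are muscle-side genes, and without the 4 pigs richest in ACTA1 the tissue differences were -5.97 (SLC25A4), -5.33 (SLC38A4) and -6.78 (SLC8A3), and the SLC38A3 log2 difference was -5.07.

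With PTPRC, the pan-leukocyte surface protein CD45, 15 of 151 members passed (9.93%), beside 9.85% of all genes, 12 with a positive and 3 with a negative rho. By Pearson's r, beside 1434 of 12541 genes, 18 members passed. Among them SLC2A6 had a rho of 0.761 (permutation p = 0.00048; adjusted p = 0.0106) and an r of 0.792 (permutation p = 0.00016; adjusted p = 0.00401; 0.870 without 2 libraries). SLC46A2, a relative of the intestinal folate transporter that ranged from 1.29 to 10.3 CPM in adipose, had a rho of 0.783 (permutation p = 0.00019; adjusted p = 0.00559) and an r of 0.817 (permutation p = 4e-05; adjusted p = 0.00148; 0.805 without 2 libraries). SLC6A8, the creatine transporter, fell as PTPRC rose, with a rho of -0.82 (permutation p = 6e-05; adjusted p = 0.00263) and an r of -0.82 (permutation p = 3e-05; adjusted p = 0.00125; -0.75 without 2 libraries). Of the lymphocyte markers, 4 of 5 had a row and their sum was 61.3 to 357 CPM in adipose and 8.68 to 98.7 CPM in muscle. All 4 macrophage markers with a row were higher in adipose, with a sum of 164 to 795 CPM in adipose and 36.1 to 220.0 CPM in muscle. All 4 endothelial markers with a row (sum of 430.97 to 991.03 CPM in adipose and 213 to 476 CPM in muscle) and all 5 fibroblast markers (11694 to 53279 CPM in adipose and 1361 to 8653 CPM in muscle) were higher in adipose too. The part of these cells in the tissue differences was not tested. With KRT8 in adipose 0 of 151 members passed by rho, beside 0.0% of all genes. An unadjusted permutation p under 0.05 was found for 17 members, beside 1707 of 12541 genes. With PLIN1 in muscle 0 members passed by rho, beside 0.0% of all genes, and 14 had an unadjusted permutation p under 0.05, beside 1622 of 12541 genes. By Pearson's r 0 members passed with KRT8, beside 6 of 12541 genes, and 1 passed with PLIN1, beside 60 of 12541 genes. That member was SLC1A5, at an r of 0.877 (permutation adjusted p = 0.0383) and a rho of 0.779 (permutation adjusted p = 0.155).

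It was asked last whether a transporter that was high in the fat of a pig was also high in its muscle. Of 125 members with at least 1 CPM in at least 15 libraries of each tissue, 0 passed by Spearman's rho, in a two-sided permutation test over 18 pigs adjusted over 11109 genes, beside 0.576% of all genes. At an unadjusted p under 0.05 there were 15 of 125 members, beside 14.3% of all genes. The median rho was 0.156 over the members and 0.185 over all genes. By Pearson's r, 1 member passed, beside 1.87% of all genes. That member was SLC37A4, with an r of 0.779 (permutation p = 0.00014; adjusted p = 0.0197; 0.731 without the 2 pigs farthest from the adipose median) and a rho of 0.752 (permutation p = 0.00053; adjusted p = 0.0606). SLC7A2 came next by rho, at 0.668 (permutation p = 0.00331; adjusted p = 0.116), with an r of 0.483 (permutation p = 0.0425; adjusted p = 0.312; 0.586 without 2 pigs). The other leading members by rho were SLC39A9 (0.620), SLC50A1 (0.616), SLC25A20 (0.593), SLC2A12 (0.585), SLC49A3 (0.573) and SLC1A5 (0.573), and none of these 6 passed (permutation adjusted p of 0.157 to 0.209).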

How the data were processed

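RNA of 18 pigs was isolated with a MagMAX kit, made into TruSeq libraries and read for 100 nt from both ends, per the labels' protocols, which do not state strand. The authors deposited expected counts per Ensembl gene, not normalised, in steps of 0.5. Per the submitters' processing notes the tools were GSNAP and HTSeq. Not given in the sources used here are their versions, the genome build and the gene annotation. Counts were rounded to whole numbers, and 5 lines that name no gene were left out (reads in no gene were 28.2% to 53.8% of an adipose and 16.1% to 34.1% of a muscle library). Symbols came from a table of current names (11804 of 25322 IDs matched), which holds 343 symbols that meet the rule. No gene lengths, coordinates or sequences were used, and unused columns numbered 0.

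The tissue difference was fitted with edgeR 4.0.16 in R 4.3.3 (robust quasi-likelihood, tissue alone, trimmed-mean factors averaging 1.62 in adipose and 0.626 in muscle, default filter on low counts). The SE is the log2 difference over the square root of F. In data simulated for this comparison on 12542 genes, 100 of 100 changes of 1 on the log2 scale were recovered, and 43 of 100 of 0.5, with 2 false calls. Those data changed few genes, as many up as down, with 1 dispersion for all genes and unpaired libraries. They therefore cannot show how calls depend on scaling when most genes differ, as they do here. Alternatives used DESeq2 1.42.0 and limma 3.58.1. Correlations used log2 CPM (prior count 2) and 100000 permutations in Python 3.11.15 (numba 0.67.0, pandas 2.3.3, SciPy 1.17.1, NumPy 2.4.6), and figures Matplotlib 3.10.9. A number marks 1 animal in both tissues, which pairs the samples (the deviations of a pig's tissues correlated at 0.236 on average, 0.0973 to 0.359, against -0.0138 between pigs). Separate pigs are biological replicates.

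Members, substrate groups and lists were chosen with earlier results of these data known. The members named are, per direction, the 12 with the largest difference among those with a mean of 5 CPM or more where higher and the same sign in 18 pigs, the 4 with the highest mean CPM per group, the 8 with the largest SD per tissue, the 8 with the highest rho between tissues, and 46 with a known role, of which 31 had a row by symbol and 27 were tested. Transporters with no row by symbol were not analysed here. Some genes that meet this rule are not reported here.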

Additional observations from a re-analysis of the deposited data

How the results depend on the processing

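Counts of members higher in adipose (87) and in muscle (52) were the same with DESeq2's size factors, with the DESeq2 test and with limma voom, and were 95 and 55 with a filter of 1 CPM in 18 libraries. With the pig as a replicate block they were 89 and 52, and the block changed no call of a tested member except those of SLC10A3 and SLC16A12. With no filter on low counts, 149 members were higher in adipose and 66 in muscle, with a median log2 difference of 0.80 over 265 members, since more genes entered. With library totals alone, 29 members were higher in muscle and the median difference was 1.91. The cause was not tested. Leaving out 1 pig gave 86 to 89 members higher in adipose, 51 to 52 higher in muscle and a median difference of 0.52 to 0.59. Members correlated between tissues numbered 0 by rho, 1 by Pearson's r, 1 after regressing out adipose ACTA1, and 0 after removing each tissue's first principal component, without Sample_656, Sample_572 and Sample_735 or with a prior count of 0.5. Subunit pairs that passed numbered 0 under each of 2 alternatives. Under library totals alone these differences of named members changed sign: SLC19A2 to 1.05, SLC25A20 to 0.47, SLC26A6 to 0.32, SLC29A1 to 1.05, SLC38A2 to 0.079, SLC44A2 to 0.094, SLC4A1AP to 0.99, SLC4A7 to 0.54, SLC5A4 to 0.99, SLC7A7 to 0.57, SLC25A24 to 1.08 and SLC35B4 to 0.95. Under the same scaling SLC2A11, SLC4A4, SLC10A3, SLC16A12 and SLC19A2 gained an adipose call. The SLC2A11 log2 difference, which did not pass, was -0.0039 by DESeq2 and -0.00032 without Sample_731, Sample_391, Sample_176 and Sample_911. Without those pigs SLC2A8, SLC15A4, SLC25A24 and SLC35B4 lost their calls. At the depth of these libraries, 3 counts were worth up to 1.003 CPM in adipose and up to 0.636 CPM in muscle before scaling. The scaling factors averaged 1.62 in adipose and 0.626 in muscle. In the scaled levels given above, 3 counts are therefore worth less than this in adipose and more in muscle, and low values rest on few counts.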
